A study of Mus musculus with 109 samples.

Results

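The proteasome genes of single cerebellar cells were described here through 49 rows of a raw count table, out of 15973 listed genes. The rows were those whose symbol joins a Psma to Psmg prefix to a number. They comprised the 14 core subunits (Psma1 to Psma7 and Psmb1 to Psmb7), 17 cap subunits (Psmc1 to Psmc6 and 11 Psmd genes), and 15 further proteasome genes: tissue-specific beta subunits, activators, assembly factors and an inhibitor. The remaining 3 rows were no proteasome subunits: Psmc3ip, which encodes a recombination protein, and the gene copies Psme2b-ps and Psmb6-ps. Psmb9 and Psma8 were not analysed here.

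The 109 single cells were prepared as granule precursors from the brain of C57BL/6 mice at postnatal day 7. By their clusters, the study assigned some of them to precursors and others to granule cells. Each cell was made into its own library on a microfluidic capture chip after Percoll density centrifugation. No treatment is named for the cells, and the number of animals is not given in the sources used here. The library names placed the cells in 6 library groups of 18 or 19 cells, and the classes were compared over these groups. The study describes 6 independent batches but does not say which libraries form each. Nothing in the labels says that library groups were separate animals. The p-values therefore measure the spread between library groups, which may be technical. Granule precursors divide in the outer layer of the young cerebellum before they leave the cycle and migrate inwards. The study concerned Notch signalling from one such progenitor to another.

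Totals ran from 15071 to 8616017 counts per cell, with a median of 3604792 and a second lowest of 1110182, and 2771 to 13533 genes were detected per cell. Reads were counted without molecular identifiers. An interval on a share of cells covers counting error only. One on a fitted fold change rests on the spread between library groups. A count was converted to counts per 1000000 counts of its cell (CPM). Cells with at least 100 CPM of Mki67, a protein of cycling cells, were called Mki67-high (32 cells), and those under 10 CPM Mki67-low (75 cells). Cells with at least 1000 CPM of Dcx, a microtubule protein of newborn neurons, were called Dcx-high (54 cells), and those under 100 CPM Dcx-low (26 cells). The classes overlapped in cells: 45 of the Mki67-low cells and 7 of the Mki67-high cells were Dcx-high, so the comparisons are not independent. In every library group each class held at least 2 cells. At least 3 of 11 granule lineage progenitor markers, Mki67 among them, reached 50 CPM in 31 of the 32 Mki67-high cells and 61 of the 75 Mki67-low cells. The class limits fix the Mki67 marker, which every Mki67-high cell holds and no Mki67-low cell can, so these counts are no independent check of the classes. Pax6 and Meis1, also listed, are markers of the whole granule lineage in the study. Of the Mki67-high cells, 2 stood apart, cell 18 of library group 3 and cell 18 of library group 6, with 13533 and 12684 genes and 11 and 10 of 12 astroglial markers at 50 CPM or more. These cells, and the cell with 15071 counts, which lay between the Mki67 limits and was Dcx-high, are called cells of odd depth (over 10000 genes or under 1000000 counts). In all, 5 cells had at least 5 astroglial markers at 50 CPM and are called astroglial cells.

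The proteasome degrades proteins tagged with ubiquitin. Its core is a barrel of outer alpha rings and inner beta rings, and 3 beta subunits, encoded by Psmb5, Psmb6 and Psmb7, cut the substrate. The cap binds the substrate, removes its ubiquitin and, with a ring of ATPases encoded by Psmc1 to Psmc6, unfolds it and feeds it into the core. Timed destruction of cyclins and other regulators by the proteasome drives the cell cycle, and neurons use it to remodel their proteins.

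Core and cap transcripts were present in all 109 cells, although few cells held a count of every subunit. A cell held counts of 5 to 14 core subunits, with a median of 11, and of 7 to 17 cap subunits, with a median of 13. All 14 core subunits were counted in 15 cells and all 17 cap subunits in 8 cells. The summed core level ran from 149 to 7205 CPM per cell with a median of 2551 CPM, and the summed cap level from 17.3 to 9077 CPM with a median of 2482 CPM. The core and cap sums were thus alike in their median, while a typical cell drew most of either from a few subunits. The leading subunit supplied a median of 40.9% of the core counts of a cell and 45.9% of its cap counts. Over the 109 cells the core sum and the cap sum had a Spearman rho of 0.090, and the numbers of core and cap subunits detected one of 0.54. The number of genes detected had a rho of 0.60 with the core subunits detected and 0.66 with the cap subunits. The median rho was 0.10 over 91 pairs of core subunits and 0.098 over 136 pairs of cap subunits, beside 0.044 over all pairs of 3259 genes found in at least 55 cells. These points share cells and depth.

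Between subunits, levels were set per kilobase of annotated exon, on means over the cells of a library group. In the core, the highest was Psmb6, the beta subunit that cuts after acidic residues, at 249 ± 74.3 CPM per kb (SD, n = 6 library groups). The other catalytic subunits lay far lower, with Psmb5, which cuts after hydrophobic residues, at 32.9 ± 17.6 and Psmb7, which cuts after basic residues, at 32.4 ± 12.6 CPM per kb. Over the library groups Psmb6 ran from 142 to 330 CPM per kb and Psmb5 from 14.2 to 54.5, so these ranges did not overlap. The lowest core subunit was the structural Psmb3, at 24.8 ± 9.3 CPM per kb. In the cap the highest was the ATPase Psmc4, at 116 ± 45.3 CPM per kb, and the lowest the lid subunit Psmd3, at 11 ± 9.6 CPM per kb. The order depends on the exon lengths, which join all annotated exons of a gene. Other annotated genes share 109 of the 899 exon bases of Psmb5, 405 of the 3421 of Psmb7 and 0 of those of Psmb6. The effect of this overlap on the counts was not tested. By mean CPM over all cells Psmb6 was still the highest of the core, at 466, but Psmb5 (29.8) lay below Psmb3 (57.2). In the cap, Psmd14 (286) and Psmd2 (269) then lay above Psmc4 (251), and Psmd13 (43.5) below Psmd3 (54.4). No subunit differed beyond the spread of the library groups from its neighbour in the order per kb. The smallest p of the 29 neighbour pairs was 0.0625 for Psmb2 over Psma1 (exact sign-flip test, two-sided, unadjusted), and 0.03125 is the smallest that 6 library groups allow.

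**Figure D1:**
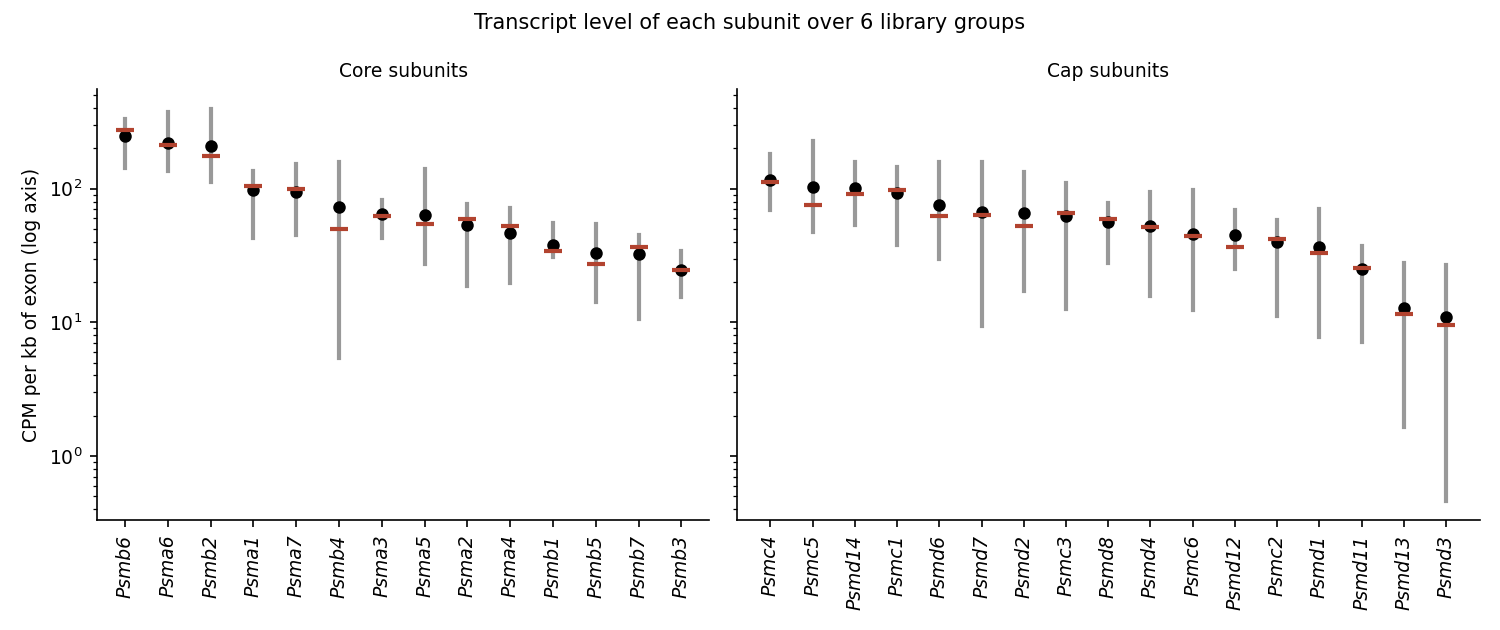
CPM per kilobase of exon (log axis) of each core and cap subunit, in order of level. Black points are means and red bars medians of 6 library groups, and grey lines run from the lowest to the highest group. Psmb6, Psma6 and Psmb2 lead the core, and Psmd13 and Psmd3 close the cap.

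Psmb6 was also the subunit found in most cells, 107 of 109 (98.2%, Wilson 95% interval 93.6 to 99.5%). Psmb5 was found in 59 cells and Psmb7 in 66. Core subunits were found in a median of 90.5 cells and cap subunits in 82. After every cell was thinned to 1000000 counts, which left out 1 cell, the median share of cells was 71.3% for a core and 59.3% for a cap subunit. A typical subunit was therefore read in most cells, but at very unequal levels. The cell with the most Psmc4 held 5103 CPM, 18.7% of the Psmc4 CPM of all cells, while the median cell held 3.62 CPM.

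The tissue-specific beta subunits were rare. Psmb8, which replaces Psmb5 in the immunoproteasome of antigen-presenting and interferon-exposed cells, was counted in 5 cells. Of the Psmb8 CPM, 95.7% came from cell 3 of library group 3, which was Mki67-low and Dcx-high and held 559 CPM. The pair of gene-rich Mki67-high cells with astroglial markers held 11.7 and 12.3 CPM of Psmb8, and each had 6 of 8 microglial markers at 50 CPM or more. Psmb10, which replaces Psmb7 there, was counted in 19 cells with up to 685 CPM. The thymic Psmb11 had 1 count in each of 3 cells. Among activators, Psme4, which encodes a nuclear activator of the core, was found in 103 cells, with library group means between 66.6 and 635 CPM. Psme1 and Psme2, which form an interferon-inducible activator, were found in 50 and 39 cells, and Psme3, whose product activates the core in the nucleus, in 57. Of the assembly factors, Psmg2 was found in 68 cells and its partner Psmg1 in 13.

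Promoter sequence was compared for the subunits because it was not used to choose them. RefSeq promoters on GRCm38.p6, of 250 bases before to 50 after a gene start, were found for 25 of the 31 core and cap subunits. Of 9 short motifs searched on both strands, CGGAAG, the core of many ETS family sites, stood in the promoters of 13 of 14 cap subunits (92.9%) and of 4 of 11 core subunits (36.4%). It stood in 18.8% of all 27025 genes with a promoter and in 39.5% of the 5753 that were found in at least 22 cells here. Of the ATPases, 4 of 5 held it. These ATPase windows show the match in capitals, as CGGAAG or, where the motif lies on the other strand, CTTCCG. They run 5′ to 3′ on the strand of the gene.
Psmc1, chr12:100110164-100110189, plus strand: ggtggatgcaCTTCCGgcggtggcga
Psmc2, chr5:21786746-21786771, plus strand: aagacaccagCGGAAGcgggaaaggt
Psmc4, chr7:28050065-28050090, minus strand: atgtgaaggaCTTCCGttggcgtcag
Psmc6, chr14:45329715-45329740, plus strand: gcgggccagcCGGAAGgggcggagcc

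The motif TGACNNNGC, bound by the stress factor that induces proteasome genes, stood in 4 of the 25 promoters (16%), beside 14% of all genes and 17.1% of those found in at least 22 cells. Psmc6 and Psmd12 were the others. The catalytic subunits Psmb5 and Psmb6 held it in these windows, shown with the match in capitals on the strand of the gene. No promoter of Psmb7 or Psmc3 was in the table.
Psmb5, chr14:54618024-54618052, minus strand: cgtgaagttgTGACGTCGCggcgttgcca
Psmb6, chr11:70525338-70525366, plus strand: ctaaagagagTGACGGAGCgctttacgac
A match is a description of the letters in a window. GGCGGG, the GC box, stood in 76% of the 25 promoters and 71.8% of genes found in at least 22 cells, and CCAAT in 40% and 43.7%. The same stress element followed by an A, which overlaps it, stood in 1 of the 25 promoters, CACGTG in 1, TTTNNCGC in 3, TATAAA in 3 and TGACGTCA in 0. In the same order these motifs stood in 3.45%, 8.09%, 5.93%, 15.7% and 2.03% of all genes, and in 2.85%, 12.3%, 11.4%, 7.77% and 4.05% of genes found in at least 22 cells. Other motifs differed between cap and core too. For cap and core the shares were 85.7% and 63.6% for GGCGGG, 28.6% and 54.5% for CCAAT, and 14.3% and 18.2% for TGACNNNGC. They were 7.14% and 0% for the element with the A, 0% and 9.09% for CACGTG, and 21.4% and 0% for TTTNNCGC. TATAAA had 14.3% and 9.09%, and TGACGTCA 0% in both.

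Mki67-high and Mki67-low cells were compared first, which sets cycling cells against a class that held 45 Dcx-high cells among 75, with summed granule neuron markers at a median of 5852 CPM beside 2916 CPM in Mki67-high cells. No proteasome gene was called in this comparison. After thinning, Mki67-high cells held counts of more core and of more cap subunits in 5 of 6 library groups, while 78.6% of genes found in at least 22 cells were also counted in a larger share of them. The leading cap subunit supplied a smaller share of the cap counts in Mki67-high cells in 6 of 6 library groups. Neither carries a test. The mean core level was 1.3-fold (131%) that of Mki67-low cells, and the cap level 105%.

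The core sum, as a mean over cells, ran in the Mki67-high cells from 2391 to 4202 CPM over the library groups with a median of 3222 CPM, and in the Mki67-low cells from 1667 to 3227 CPM with a median of 2412 CPM. It was higher in the Mki67-high cells in 5 of 6 library groups, and the ranges overlapped. The mean log2 ratio was 0.39 ± 0.38 (SD, n = 6 library groups). A sum over chosen members carries no test. The cap sum ran from 1917 to 4813 CPM in Mki67-high and from 2382 to 3792 CPM in Mki67-low cells, with a log2 ratio of 0.04 ± 0.68, and was higher in 3 of 6 library groups. On sums scaled by TMM the cap log2 ratio was -0.07.

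The ATPases and the rest of the cap had log2 ratios of opposite sign. The 6 ATPases summed to 1029 to 1933 CPM in Mki67-high and 698 to 1040 CPM in Mki67-low cells, higher in 6 of 6 library groups, with a log2 ratio of 0.70 ± 0.42. The ranges touched only between 1029 and 1040 CPM. The other 11 cap subunits summed to 889 to 2974 CPM in Mki67-high and 1463 to 2910 CPM in Mki67-low cells. Their log2 ratio was -0.40 ± 0.85, and they were higher in 2 of 6 library groups. The difference between these parts was not tested. Without the cells of odd depth the ATPase log2 ratio was 0.70 and that of the other cap subunits -0.46, and without the astroglial cells they were 0.76 and -0.49. The other cap subunits were then higher in 1 of 6 library groups. Without library group 2 their log2 ratio was -0.14. With other class limits it was -0.04, and they were higher in 3 of 5 library groups. On medians over cells it was -0.32 ± 1.93 with a lowest group of -4.11, and they were higher in 4 of 6 library groups. Their direction by library group thus depends on how cells are combined. The split of the cap was added after seeing the data.

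**Figure D2:**
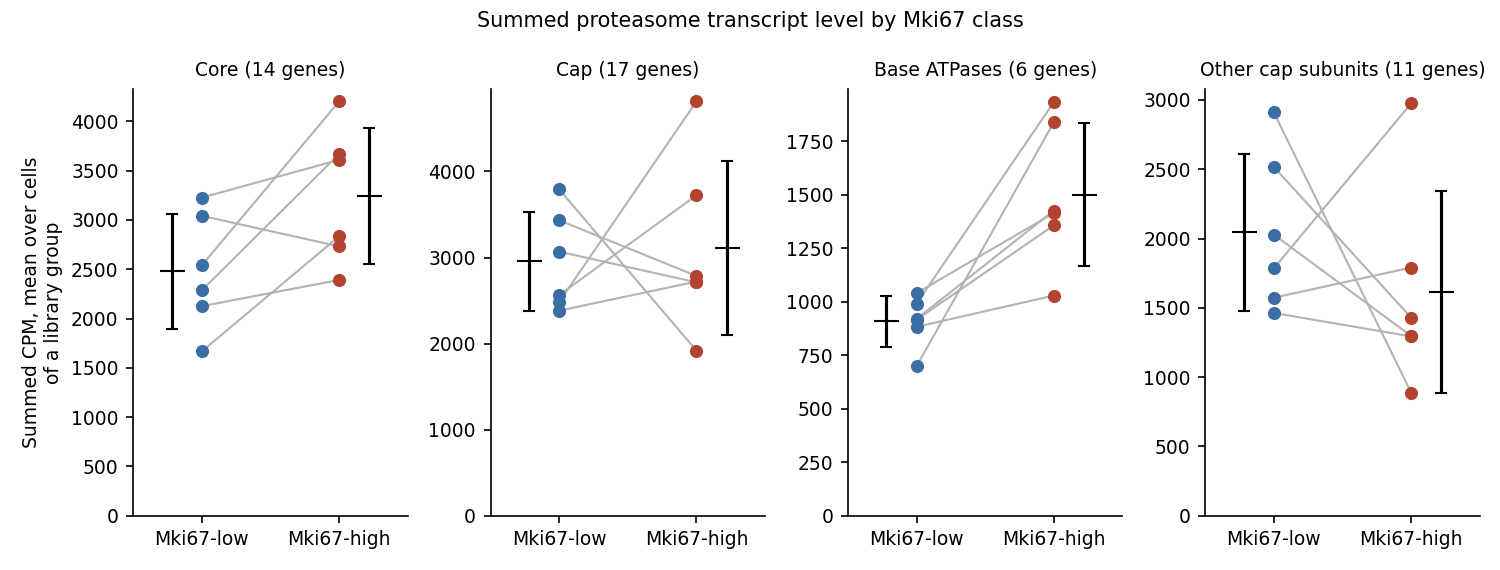
Summed CPM of the core, the cap, the 6 ATPases and the other 11 cap subunits, as means over the cells of a library group. Lines join the classes of 1 library group, and bars give mean and SD of 6 groups. By Mki67 the ATPase sum is higher in the Mki67-high cells on every line, while the other sums hold lines in both directions.

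After thinning, Mki67-high cells held 10.8 ± 1.5 of 14 core subunits and Mki67-low cells 9.30 (means over 6 library groups), and 12.2 ± 1.5 against 9.53 of 17 cap subunits. Both were higher in 5 of 6 library groups, the exceptions being group 2 for the core and group 1 for the cap. The leading core subunit supplied 33.3 ± 6.6% of the core counts in Mki67-high and 47.2% in Mki67-low cells, lower in 5 of 6 library groups. The leading cap subunit supplied 31.6 to 41.7% of the cap counts in Mki67-high and 46.6 to 67.6% in Mki67-low cells, which do not overlap. Mki67-high cells also held more genes of any kind: thinned, 4189 against 3150 genes, higher in 6 of 6 library groups (exact sign-flip test, two-sided, p = 0.03125, the smallest that 6 groups allow). Without cells of odd depth or astroglial cells, the values were 10.6 against 9.25 core subunits, 11.9 against 9.54 cap subunits and 3728 against 3130 genes, and the leading cap subunit supplied 39.7% against 53.8%. The part of the gene number in the evenness of the subunits was not tested.

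**Figure D3:**
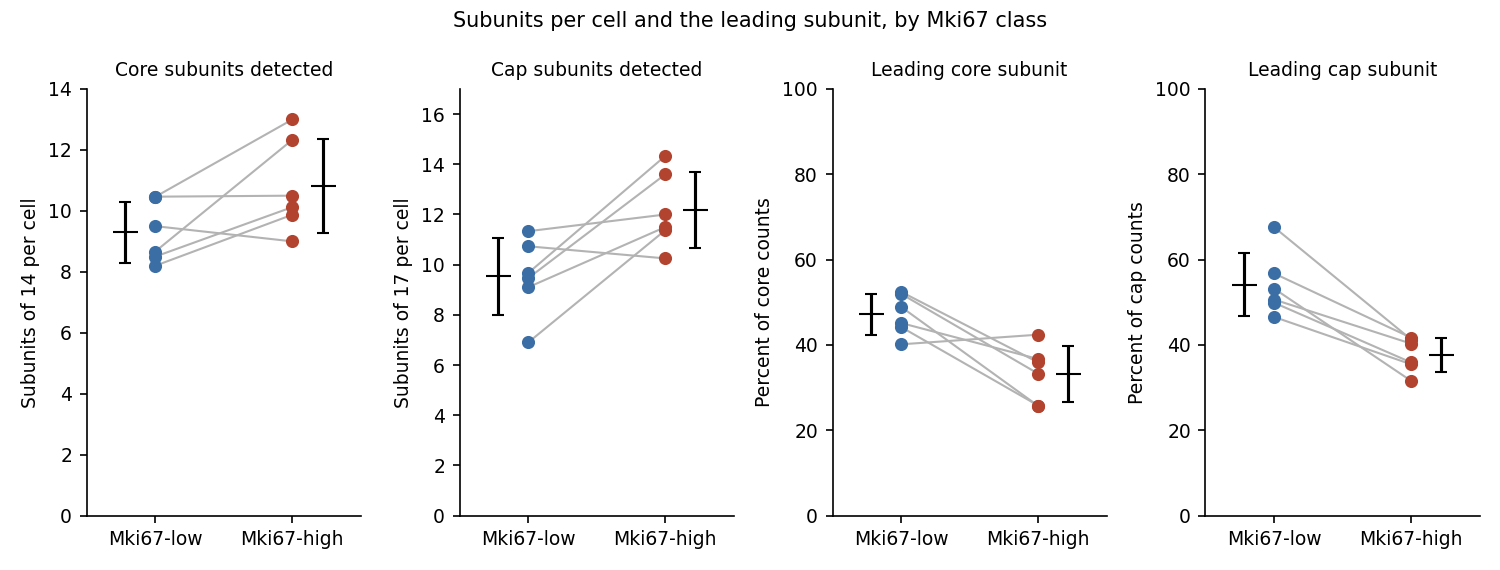
Core and cap subunits counted per cell after thinning to 1000000 counts, and the percent of core or cap counts from the leading subunit of a cell. Points are means over the cells of a library group, lines join its classes, and bars give mean and SD of 6 groups. For the leading cap subunit all Mki67-high points lie below all Mki67-low points.

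The shares of cells with a count point the same way for single subunits. After thinning, 29 of 31 core and cap subunits were counted in a larger share of Mki67-high than of Mki67-low cells, and 6418 of 8169 genes found in at least 22 cells were too. The median difference in share was 10.5 percentage points for the 31 subunits and 8.38 for all these genes. The subunits had median shares of 71.9% of Mki67-high and 62.7% of Mki67-low cells, and all these genes 37.5% and 28%. The differences are thus not matched for the share of cells that held a count. Without cells of odd depth or astroglial cells, 27 of 31 subunits and 5450 of 8169 genes had the larger share in Mki67-high cells, with median differences of 7.98 and 4.35 percentage points. The widest difference was for Psmc3, an ATPase of the cap base, with 81.2% of Mki67-high and 46.7% of Mki67-low cells. The lid subunit Psmd6 had 75% against 46.7%, and Psmb7 71.9% against 44.0%.

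**Figure D4:**
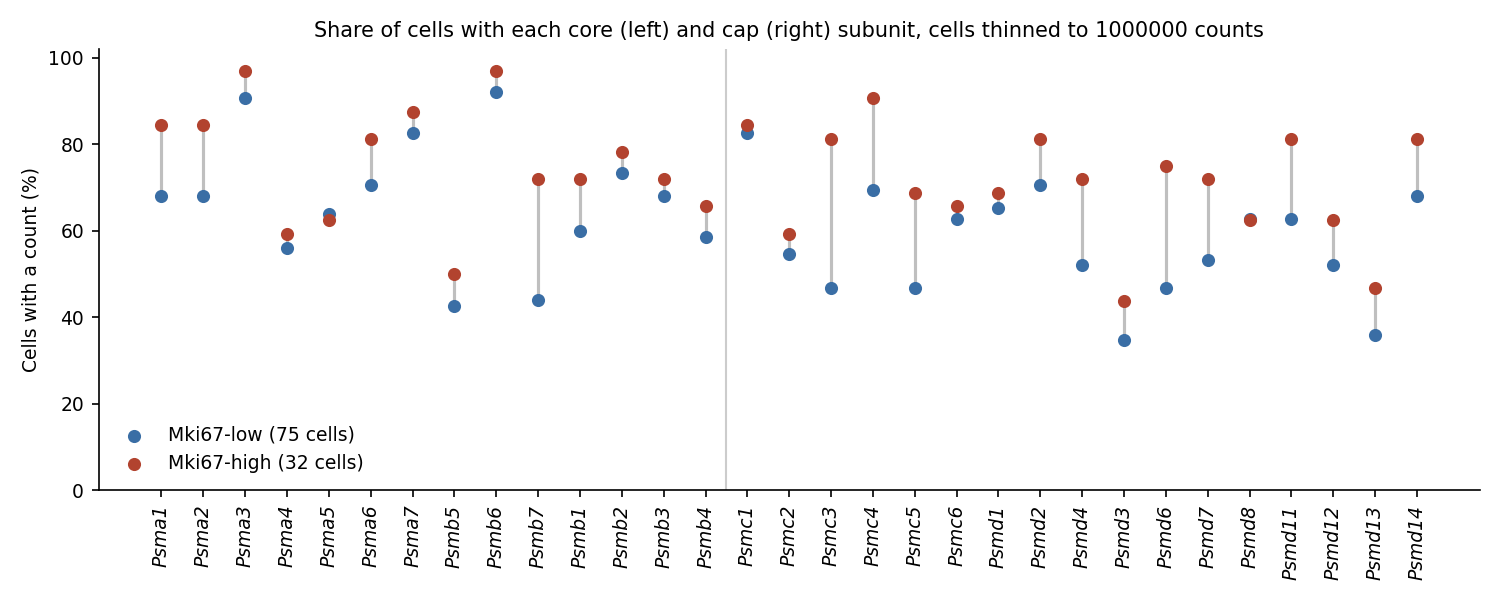
Share of cells with a count of each core and cap subunit after thinning, in 32 Mki67-high (red) and 75 Mki67-low (blue) cells. The red point lies above the blue for 29 of 31 subunits, and the longest line is that of Psmc3.

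For tests of single genes, the raw counts of each class were added up within a library group and fitted with edgeR's quasi-likelihood test. Of the 49 rows, 45 passed the filter on low counts, and Psmb8, Psmb10, Psmb11 and Psmb6-ps did not. None of the 45 had an adjusted p under 0.01 (0.022% of all 9084 genes tested were called). At an unadjusted p under 0.05 there was 1 member, and 7.33% of all genes. DESeq2 on the same sums and limma on log values likewise called no member, where DESeq2 called 2.16% and limma 0.837% of all genes. The called genes were Tacc3 and Cdc20, which act in mitosis, with edgeR adjusted p of 0.00109 and 0.00526. With the library group as a block, edgeR called 0 genes. The median fitted log2 fold change was 0.28 for the 14 core subunits, 10 of them above 0, and -0.07 for the 17 cap subunits, 7 above 0, beside -0.18 for all genes. Of the ATPases 5 of 6 lay above 0, with a median of 0.52, and of the other cap subunits 2 of 11, with a median of -0.19. By DESeq2, whose median over all genes was -0.01, the medians were 0.51 for the core, 0.79 for the ATPases and 0.01 for the other cap subunits, 6 of 11 of which lay above 0.

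Psmc3 had the smallest p of the members. Its mean CPM in library groups 1 to 6 was 54.3, 47.2, 307, 599, 474 and 447 in Mki67-high cells. In Mki67-low cells it was 118, 33.8, 269, 47.3, 17 and 107. It was higher in 5 of 6 library groups, and the groups overlapped. The fitted log2 fold change was 2.07 (SE 0.89), with an edgeR p of 0.0327 unadjusted and 0.652 adjusted. Of its exon bases, 215 lie under Slc39a13 on the other strand, and the counting is not stated to use strand. The ATPase Psmc5 had library group means of 122 to 385 CPM in Mki67-high and 11.6 to 354 CPM in Mki67-low cells, with a fitted log2 fold change of 1.40 (SE 0.82, edgeR adjusted p = 0.731). Psmc6, a further ATPase, was the core or cap subunit higher in 6 of 6 library groups, which held for 2.56% of genes found in at least 22 cells. Its means ran from 67.2 to 505 CPM against 23.8 to 311 CPM, with a fitted log2 fold change of 0.90 (SE 0.87, edgeR adjusted p = 0.854).

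Among the alpha ring genes, which form the gate and the outer walls of the core, Psma6 had means of 152 to 618 CPM in Mki67-high and 46.9 to 423 CPM in Mki67-low cells, and a fitted log2 fold change of 1.0 (SE 0.67, edgeR adjusted p = 0.766). Psma7 had 231 to 556 CPM against 63.2 to 434 CPM, and 0.82 (SE 0.63). Both had higher means in 5 of 6 library groups, with overlap. The catalytic subunits had fitted values above 0 with intervals that include 0. Psmb6 had 347 to 1118 CPM in Mki67-high and 233 to 626 CPM in Mki67-low cells, and its fitted log2 fold change of 0.24 had a 95% interval from -0.77 to 1.24. The fitted values of Psmb5 and Psmb7 were 0.33 (95% interval -2.74 to 3.40) and 0.46 (-1.58 to 2.49). The intervals of Psmb5 and Psmb7 allow several-fold differences either way.

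The structural beta subunit Psmb3 had lower means in Mki67-high cells in 6 of 6 library groups, 22.5 to 43.1 against 38.8 to 111 CPM. The lid subunit Psmd12 did so too, with 1.19 to 147 against 79.6 to 213 CPM, and 3.78% of genes had this pattern. Both sets of groups overlapped, and neither gene was called, with edgeR adjusted p of 0.793 and 0.895. Psmb2, also structural, had a fitted log2 fold change of 0.67 (SE 0.69). Psmd14, which removes ubiquitin from the substrate, had means of 51.2 to 270 CPM in Mki67-high and 164 to 531 CPM in Mki67-low cells. The fitted log2 fold change was -1.18 (SE 0.62, edgeR adjusted p = 0.706), although Psmd14 was counted in 81.2% of Mki67-high and 68.0% of Mki67-low cells after thinning. Psmd6 had the same contrast, with a fitted log2 fold change of -1.31 (SE 0.96).

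Weighting the cells of a class alike within each library group, on a log scale, gave another picture of the cap. In limma on means of log2(CPM + 1), 31 of 31 core and cap subunits lay above 0 with a median log2 difference of 1.33, where 6865 of 9084 genes lay above 0 with a median of 0.43. All 17 cap subunits thus lay above 0 on this scale, against 7 of 17 in the fit of summed counts, and the median of all genes had shifted too. On this scale a value understates the change of low genes and rises with the share of cells that hold a count. Without cells of odd depth or astroglial cells, 29 of 31 subunits lay above 0 with a median of 1.09, beside 0.24 for all genes. Psmc3 had a log2 difference of 2.85 (SE 0.85, limma adjusted p = 0.0722).

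The remaining members gave no call. Among activators, Psme2 and Psme3 had fitted log2 fold changes of -1.76 (SE 1.71) and 1.03 (SE 1.51), and in library group 1 a single cell supplied 83.4% of the Psme3 CPM of Mki67-high cells. Without that library group the Psme3 value was -1.16. The assembly factors Psmg2 and Psmd9, which aid the alpha ring and the base, had -1.80 (SE 1.36) and -2.40 (SE 2.08). Psmc3ip was fitted at 1.76 (SE 2.24). Of 29 listed partners of the proteasome and of ubiquitin supply, among them the assembly factor Pomp and the regulator Nfe2l1, none was called, and 14 of 29 had a fitted log2 fold change above 0. The smallest p among them was 0.136, unadjusted in edgeR, for Usp14, a deubiquitinase of the cap.

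Dcx-high cells were then set against Dcx-low cells. The classes are no plain order from precursor to newborn neuron, as 13 of the 26 Dcx-low cells were Mki67-low. At least 3 of 5 granule neuron markers, Dcx among them, reached 50 CPM in 16 of the 26 Dcx-low and 51 of the 54 Dcx-high cells. No proteasome gene was called by edgeR. Psmc3 was again the member with the smallest p, with lower means in Dcx-high cells in 6 of 6 library groups. The summed core and cap levels overlapped between the classes. The core sum ran from 1118 to 4112 CPM in Dcx-high and from 2437 to 3728 CPM in Dcx-low cells, with a log2 ratio of -0.42 ± 0.74 (SD, n = 6 library groups), and was higher in 2 of 6 library groups. The cap sum ran from 2106 to 3422 CPM against 2154 to 4144 CPM, with a log2 ratio of -0.15 ± 0.71. The ATPases had a log2 ratio of -0.74 ± 1.30 and the other cap subunits 0.19 ± 0.53, which were higher in 4 of 6 library groups. The sign of the latter turned to -0.01 on CPM of summed counts and -0.17 on sums scaled by TMM, each with 2 of 6 library groups higher. The log2 ratio of the whole cap became 0.02 without library group 1 and 0.14 with other class limits.

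Of the 49 rows 42 passed the filter, and none was called (0% of all 7579 genes tested, the smallest adjusted p in edgeR being 0.61). At an unadjusted p under 0.05 there were Psma1 and Psmc3, 2 of 31 core and cap subunits, beside 5.58% of all genes. DESeq2 on the same sums called 1 member, Psmc3, and 1.67% of all genes, and limma on log values called no gene. The median fitted log2 fold change was -0.59 for the core, with 4 of 14 above 0, and -0.39 for the cap, with 5 of 17 above 0, beside -0.07 for all genes.

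Psmc3 had means in library groups 1 to 6 of 58.7, 26.5, 66.3, 14.1, 13.5 and 163 CPM in Dcx-high cells. In Dcx-low cells the means were 137, 97.2, 1096, 381, 615 and 449 CPM. Each Dcx-low mean lay above the Dcx-high mean of its own library group, and the ranges overlapped because library group 6 of the Dcx-high cells exceeded library groups 1 and 2 of the Dcx-low cells. The fitted log2 fold change was -3.33 (SE 1.02, 95% interval -5.48 to -1.19), with an edgeR p of 0.00435 unadjusted and 0.638 adjusted, and a DESeq2 adjusted p of 0.00148. After thinning, 43.4% of Dcx-high and 76.9% of Dcx-low cells held a count. Over the alternatives of the fit, the log2 fold change lay between -4.04 and -2.80, and DESeq2 was the one that called it.

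Psmb6 also had lower means in Dcx-high cells in 6 of 6 library groups, a pattern of 1.05% of genes found in at least 22 cells. It ran from 6.04 to 573 CPM against 330 to 1124 CPM, with overlap. The fitted log2 fold change was -1.52 (SE 0.78, edgeR adjusted p = 0.864). Psma1 had a fitted log2 fold change of -2.29 (SE 0.96, edgeR p = 0.0291 unadjusted, 0.864 adjusted) and lower means in 4 of 6 library groups. In the other direction lay Psmb4, a structural beta subunit, at 2.31 (SE 1.31), with means of 8.53 to 390.5 CPM in Dcx-high and 5.27 to 73.1 CPM in Dcx-low cells. Psmd14 was fitted at 1.20 (SE 1.10).

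**Figure D5:**
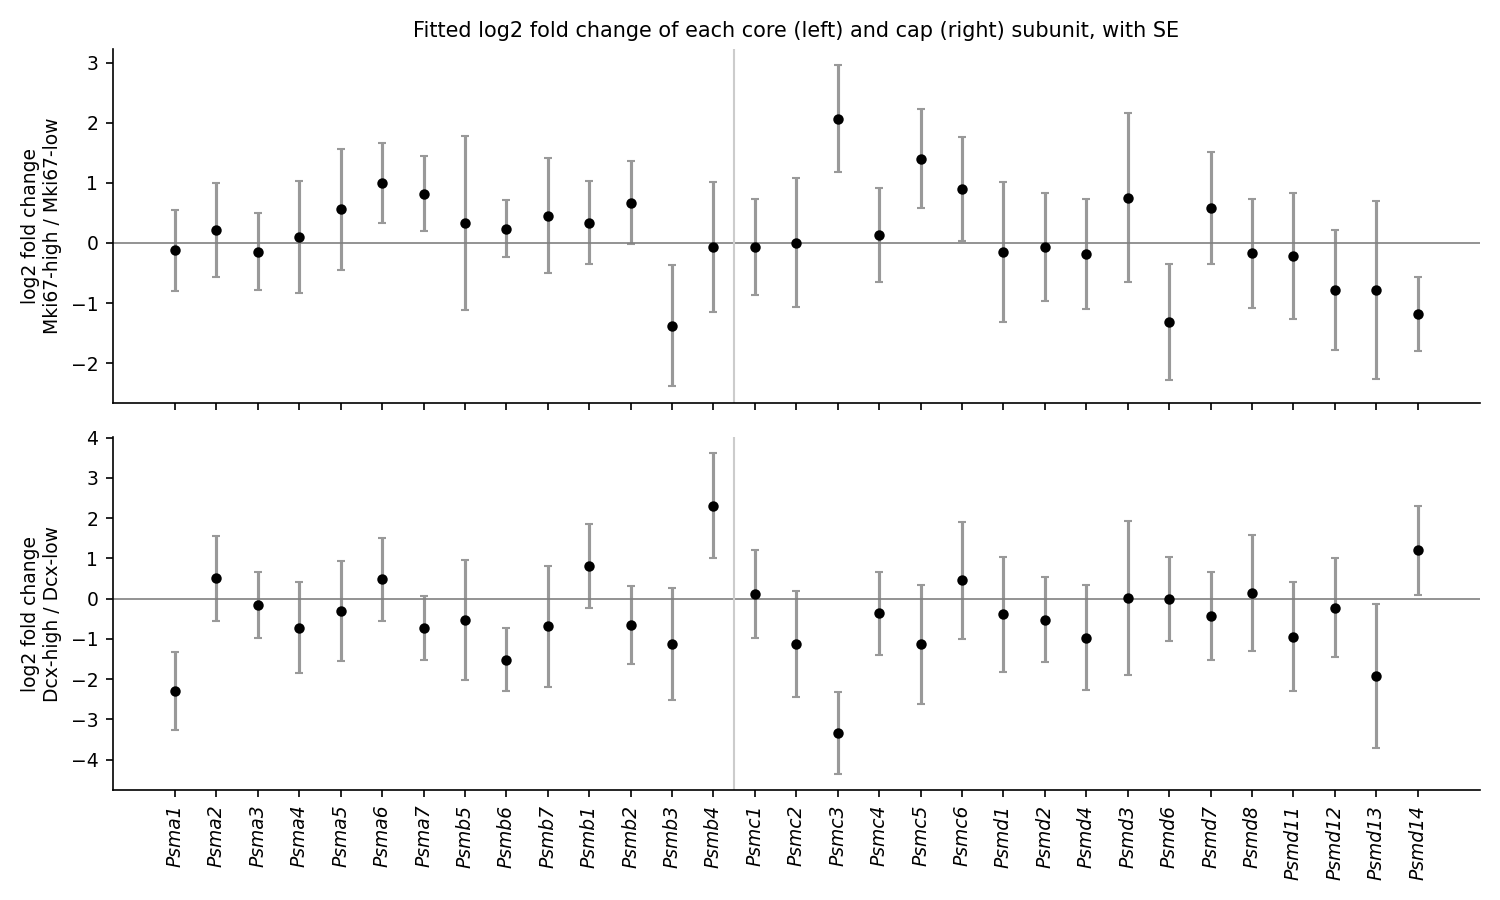
Fitted log2 fold change (edgeR) with SE of each core and cap subunit, Mki67-high over Mki67-low above and Dcx-high over Dcx-low below. Points of Psmc3 lie at 2.07 and -3.33, and no subunit had an adjusted p under 0.01 in edgeR.

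Further fitted values, none of them called by edgeR, were -0.72 for Psma7, -1.12 for Psmb3, -1.13 for Psmc2 and -1.92 for the lid subunit Psmd13. Among the activators Psme1 had higher means in Dcx-high cells in 6 of 6 library groups, 20.2 to 170.0 against 0 to 24.7 CPM, with a fitted log2 fold change of 2.41 (SE 1.55, edgeR adjusted p = 0.882). The pattern held for 4.55% of genes. Psme4 had 66.4 to 1047 CPM in Dcx-high and 0.43 to 957 CPM in Dcx-low cells, with a fitted log2 fold change of 1.12 (SE 1.29). Psmg2 had 40.4 to 351 CPM against 0.10 to 90.1 CPM and 3.05 (SE 1.66), and Psmd9 2.46 (SE 2.09). Psmb5 and Psmb7 had -0.54 and -0.69, with SE of 1.49 and 1.51. None of 27 tested partner genes was called, and 11 of 27 had a fitted log2 fold change above 0.

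The evenness of the subunits was also read by Dcx. After thinning, 8 of 31 core and cap subunits were counted in a larger share of Dcx-high cells and 23 in a larger share of Dcx-low cells, where 45.3% of genes found in at least 22 cells had the larger share in Dcx-high cells. The median difference was -5.15 percentage points for the subunits and -0.58 for these genes. The sets were again not matched, with median shares of 60.4% of Dcx-high and 69.2% of Dcx-low cells for the subunits. For these genes the median shares were 30.2% and 30.8%. Dcx-high cells held 9.38 and Dcx-low cells 10.2 core subunits after thinning, and 9.50 against 11 cap subunits, both higher in Dcx-high cells in 1 of 6 library groups. The leading cap subunit supplied 52.6% against 48.2% of the cap counts, with overlap. Without cells of odd depth or astroglial cells the cap numbers were 9.37 against 11.1, higher in 0 of 6 library groups. Genes of any kind after thinning numbered 3361 against 3503 in all cells, higher in 2 of 6 library groups. In the reduced cells they numbered 3226 against 3475, higher in 1 of 6. There, 22.6% of the 31 subunits and 41.3% of genes found in at least 22 cells had the larger share in Dcx-high cells. The median differences were -7.45 and -2.20 percentage points. The part of the gene number was not tested.

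Crossing the classes gave 6 sets of cells. The median core sum was 2988 CPM in the 13 cells that were Mki67-high and Dcx-low, 2499 CPM in the 13 cells that were low in both, and 2149 CPM in the 45 that were Mki67-low and Dcx-high. It was 3620 CPM in the 12 Mki67-high cells between the Dcx limits, 3149 CPM in the 7 cells high in both, and 2505 CPM in the 17 Mki67-low cells between the Dcx limits. Among Mki67-high cells the core median was thus lowest in the Dcx-low set. The median cap sum in Mki67-high cells was 3602 CPM in the Dcx-low, 2388 CPM in the between and 2399 CPM in the Dcx-high set. In Mki67-low cells it was 2622, 3309 and 2014 CPM in the same order. The cells of each set ranged widely, from 569 to 7205 CPM of core in the Mki67-high Dcx-low set and from 149 to 7197 CPM in the Mki67-low Dcx-high set.

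Markers of other cells were also summed by class, and only the interneuron markers had library group ranges that did not overlap. Astroglial markers summed to 362 to 3378 CPM in Mki67-high and 407 to 4730 CPM in Mki67-low library groups, microglial markers to 0 to 244 and 0 to 8.12 CPM, and interneuron markers to 0 to 17.6 and 41.4 to 1040 CPM. Oligodendrocyte markers summed to 54.2 to 2380 and 229 to 1276 CPM. In the Dcx comparison, astroglial markers summed to 483 to 5313 CPM in Dcx-high and 168 to 8261 CPM in Dcx-low library groups. Interneuron markers summed to 7.6 to 1155 CPM in Dcx-high and 0 to 3.41 CPM in Dcx-low library groups, which do not overlap. Few cells held several of them. At least 3 of the 4 interneuron markers reached 50 CPM in 2 of the 75 Mki67-low and 2 of the 54 Dcx-high cells. No Mki67-high or Dcx-low cell did so. Endothelial and mural markers reached at most 24.5 CPM and Purkinje cell markers 9.53 CPM in the Mki67 classes, and red cell markers were not analysed here. The part of these cells in the proteasome values was not tested beyond leaving out the astroglial cells and those of odd depth.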

How the data were processed

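The authors aligned reads of 109 single cells to mm10 with STAR 2.4.1d and deposited raw counts per gene from HTSeq 0.6.1, as the labels and methods state. Each cell was assigned to 1 of 6 library groups by the library number in its title. CPM was 1000000 times a count over its column total. Members and lists were chosen with earlier results of these data known.

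For tests, raw counts were summed by class and library group and fitted across all genes with edgeR 4.0.16 (filterByExpr, TMM, quasi-likelihood, Benjamini-Hochberg, threshold 0.01; R 4.3.3). The script was tested on simulated counts drawn with the fitted spread of these sums. Of 50 genes changed 4-fold, edgeR called 0 by Mki67 and 0 by Dcx. At 64-fold it called 3 and 8 of 50, and at 256-fold 20 and 23 of 50. It called 0 unchanged genes. The absence of a call is therefore no sign that a gene was unchanged. DESeq2 1.42.0 and limma 3.58.1 were alternatives, with other filters, class limits and cells. limma used a pseudocount of 1. Thinning drew 1000000 counts per cell without replacement. Exon lengths came from the GENCODE M21 annotation of GRCm38. Named were catalytic subunits, the 2 smallest unadjusted p per role in each comparison, and the highest and lowest per kb of core and cap. Those named for a direction in 6 of 6 library groups, for detection or for few cells were chosen after their values were seen. Sums and evenness were compared within library groups. The main edgeR fit had no term for the library group; a fit with it as a block was an alternative. Deviations of class sums from the same library group correlated by 0.04 to 0.12, not all over 0.1.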

Additional observations from a re-analysis of the deposited data

Results flagged for a closer look

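Of 76 sets of 6 library group means examined, 9 held a group far from the other 5. The limit flags about 1 in 20 sets of normally distributed values, a rate that means led by single cells need not follow. All 9 were single genes with the far group at the high end, and none was a core or cap sum. In Mki67-high cells Psmb6 reached 1118 CPM in library group 6, with the others between 347 and 585 CPM, and Psme3 reached 890.0 CPM in library group 1, with the others between 3.77 and 154 CPM. In Mki67-low cells Psmc5 reached 354 CPM in library group 2 against 11.6 to 107 CPM, and Psme2 182 CPM in library group 3 against 0.72 to 25.3 CPM. In Dcx-high cells Psmc3 reached 163 CPM in library group 6, Psmd13 38.8 CPM in library group 6, and Psme1 170.0 CPM in library group 3. In Dcx-low cells Psme4 reached 957 CPM in library group 5 against 0.43 to 151 CPM, and Psmg2 90.1 CPM in library group 6 against 0.10 to 29.9 CPM. The cell with the most of the gene supplied 43.3 to 83.4% of the CPM of these class means.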

How the results depend on the processing

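The count of called members was 0 in every fit, with the exception of DESeq2 in the Dcx comparison, which called 1 (Psmc3, log2 fold change -3.64). The count of all genes called by Mki67, 2 in the main result, was 6 at a threshold of 0.05, 176 by DESeq2, 76 by limma, 29 by limma without cells of odd depth or astroglial cells, 79 by limma on thinned cells, 1 without cells of odd depth, 1 without astroglial cells, 0 with other class limits and 0 to 1 on leaving out a library group. With the library group as a replicate block it was 0, also without the cells of odd depth, and no proteasome gene was called, although 5 of 6 Mki67 and 6 of 6 Dcx sums correlated best with their own number. DESeq2 called 112 genes by Dcx, against 0. Limits of Mki67 at 50 CPM against no count, with no low cell in library group 3, moved the log2 ratio of the core sum to 1.19 and of the ATPases to 2.94 (SD 3.87); the median over cells moved the latter to 2.04. The median share of cells with a core subunit moved from 83% to 71.3% when thinned and 52.3% at 10 CPM or more, and with a cap subunit from 75.2% to 59.3% and 39.4%. Of 237 alternative values of 15 named members by Mki67, 18 changed sign, and of 240 by Dcx, 5. By limma on all cells, without the doubted cells and on thinned cells, Psmd14 by Mki67 became 1.20, 0.80 and 1.30, Psmd6 0.83, 0.46 and 0.90, Psmg2 1.05, 0.91 and 1.08, and Psmd14 by Dcx -0.28, -0.25 and -0.23; Psmb3 by Mki67 became 0.087 and 0.066 on all and thinned cells and 0.036 with other class limits. Psmb5 by Mki67 became -0.33 with the replicate block, -0.27 with it and without cells of odd depth, -0.11 with other class limits. On leaving out a library group, Psmb5 by Mki67 ranged from -0.068 (without group 5) to 0.66, Psmb7 by Mki67 from -0.24 (without group 5) to 0.96, Psme3 by Mki67 from -1.16 (without group 1) to 2.27, Psmb7 by Dcx from -1.44 to 0.24 and Psmc2 by Dcx from -1.85 to 0.26 (both highest without group 3). The cause was not tested. Thinning with limma, odd depth with limma or with the block, and the ATPase sums were added after seeing the data. Under the main limits every class sum held at least 2 cells, so the fit on sums of at least 2 cells was not run. Under the other limits library groups 4 and 5 had 1 Mki67-low cell each and library group 2 had 1 Dcx-low cell.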
